A study of Homo sapiens with 4 samples.

Results

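The 8 subunits of the human condensin complexes were followed in NUDUL1 cells, a human line of diffuse large B cell lymphoma of the germinal center B cell-like kind. They were chosen by name, as the rows of the expression table for SMC2, SMC4, NCAPD2, NCAPG, NCAPH, NCAPD3, NCAPG2 and NCAPH2, which are 8 of 25066 genes. RNA sequencing compared 2 libraries labelled control with 2 labelled GNA13-deficient. GNA13 encodes Gα13, a G protein subunit that couples receptors to RhoA signaling. By the study's methods, both lines came from a single-cell clone with doxycycline-inducible Cas9 that had been transduced with Tbxa2r, the thromboxane receptor, and both were given doxycycline. The lines differed in the guide RNA they carried, 1 control guide against 1 guide to GNA13, so a guide or line effect cannot be told apart from loss of GNA13. Every library came from cells treated with 10 nM U46619, a stable thromboxane analog that acts on that receptor, for 24 h, and no untreated cells were compared. The labels describe duplicates without saying that they were separate cultures, so the p values measure the spread between these libraries, which may be technical.

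Condensins are ring-shaped machines that use ATP to fold chromatin into loops and give mitotic chromosomes their compact rod shape. Both complexes are built on the SMC2 and SMC4 ATPases. Each adds a kleisin that closes the ring (NCAPH in condensin I, NCAPH2 in condensin II) and a pair of HEAT-repeat subunits (NCAPD2 and NCAPG, or NCAPD3 and NCAPG2). Condensin II is nuclear throughout the cell cycle, whereas condensin I is largely cytoplasmic until the nuclear envelope breaks down. Both act on the chromosomes of dividing cells.

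The libraries held 29209544 to 31537955 mapped reads, and each gene is given as log2 normalized reads, a scale on which 1 unit is a doubling. GNA13 itself, the gene targeted, was higher at the mRNA level under the GNA13-deficient label. Its log2 values were 12.457 and 12.446 under the control label and 13.101 and 13.109 under the GNA13-deficient label (difference 0.65, SE 0.05, limma adjusted p = 0.00214). The mRNA level of a gene targeted by Cas9 does not show whether its protein was lost, so these values do not check the labels. A GNA13 pseudogene could take or add reads, which was not tested. Every direction given here therefore rests on the labels. The 6 B cell markers summed to 51598 to 60050 reads per library. Those of germinal center B cells summed to 22342 to 25333, with SERPINA9 at 0 in every library and BCL6, a transcriptional repressor that defines the germinal center, at a log2 difference of -2.49. T cell markers summed to 0 or 1 read. Under the control and GNA13-deficient labels in turn, the 4 plasma cell markers summed to 19309 and 19639 against 15434 and 14414 reads, the 4 myeloid markers to 224 and 246 against 27 and 25, and the 4 fibroblast or epithelial markers to 45 and 50 against 104 and 105. Their part in the results was not tested.

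Of the 8 condensin subunits, 7 were higher and 1, NCAPD3, was lower in the libraries labelled GNA13-deficient. The rises ranged from 0.64 for NCAPD2 to 0.87 for SMC2 on the log2 scale, or 1.56-fold to 1.83-fold. NCAPD3 fell by 0.57, to a level 1.48-fold lower. All 8 passed the filter on low values and all 8 passed the test (limma, adjusted p 0.00162 to 0.0141 over 16945 genes). Over all genes tested, 13.1% were called higher and 16.6% lower. Over the 8271 protein-coding genes whose mean log2 value reached 8.126, the median, the shares were 21.6% and 17.4%. The median difference of the 8 subunits was 0.73 beside -0.02 for all genes tested. In none of the 8 did the groups overlap, and the smallest gap between them was 0.531. Groups that do not overlap were common: 31.3% of genes tested lay wholly higher and 34.0% wholly lower in the libraries labelled GNA13-deficient. Levels are those of bulk RNA, so more or fewer cells in a given state and more or less RNA per cell cannot be told apart.

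These calls needed all 4 libraries. With any 1 library left out, no gene in the table was called, although every subunit kept its direction. Without a filter on low values, SMC4 (adjusted p = 0.131) and NCAPH2 (adjusted p = 0.0536) were no longer called, and without a variance trend SMC4 (adjusted p = 0.0711) was not. Over all fits of 4 libraries, limma's adjusted p ran from 0.00018 to 0.131 for SMC4 and from 4.3e-05 to 0.0536 for NCAPH2. Centring each library on its median moved the median difference of all genes to 0.18 and the share of calls that were higher from 44.03% to 69.14%. The subunits moved with it, and over every fit and scaling of the whole table the 7 differences stayed above 0 and that of NCAPD3 between -0.62 and -0.36.

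**Figure D1:**
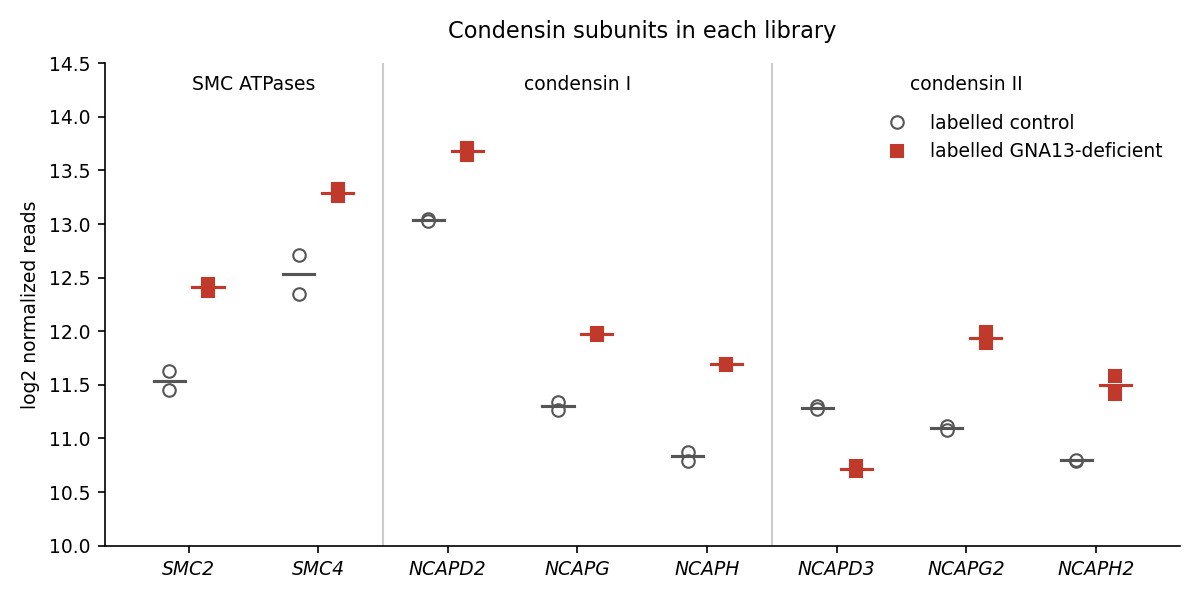
Log2 normalized reads (vertical axis, not starting at 0) of the 8 condensin subunits in each library, with circles for the 2 libraries labelled control, squares for the 2 labelled GNA13-deficient, and a line at each group's mean. The squares lie above the circles for 7 subunits and below them for NCAPD3, and the widest replicate gap is that of SMC4 in the libraries labelled control (0.365).

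The shared ATPases SMC2 and SMC4 form the arms and heads of both rings. SMC2 (chromosome 9, 106856541 to 106903700, plus strand, GENCODE gene on GRCh37) had log2 values of 11.628 and 11.453 under the control label and 12.442 and 12.378 under the GNA13-deficient label, a difference of 0.87 (SE 0.08, 95% interval 0.67 to 1.07, limma adjusted p = 0.00271). Its rise was close in size to those of NCAPH and NCAPG2, and which was largest changed with the scaling and the libraries used. SMC4 (chromosome 3, 160117062 to 160152742, plus strand) had values of 12.715 and 12.35 against 13.324 and 13.258, a difference of 0.76 (SE 0.13, 95% interval 0.42 to 1.09, limma adjusted p = 0.0141). Its libraries labelled control lay farther apart than those of any other subunit. The difference was 0.94 without the first library labelled control and 0.58 without the second, so the size of the SMC4 rise, but not its direction, rested on them.

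In condensin I the 3 subunits rose together, by 0.64 to 0.86, with a mean of 0.72. NCAPD2, a HEAT-repeat subunit (chromosome 12, 6602522 to 6641121, plus strand), had log2 values of 13.051 and 13.03 under the control label and 13.714 and 13.647 under the GNA13-deficient label (difference 0.64, SE 0.06, limma adjusted p = 0.00288). Replicates differed by far less than the groups did. NCAPG, the other HEAT-repeat subunit (chromosome 4, 17812602 to 17846488, plus strand), had values of 11.342 and 11.264 against 11.967 and 11.982 (difference 0.67, SE 0.05, limma adjusted p = 0.00225). For the kleisin NCAPH (chromosome 2, 97001504 to 97042829, plus strand) the values were 10.877 and 10.789 against 11.699 and 11.681, a difference of 0.86 (SE 0.06, limma adjusted p = 0.00162). NCAPH had the lowest adjusted p of the 8 in this fit, though not in every fit of 4 libraries, and the widest gap between groups, 0.804.

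In condensin II the subunits split, with a mean difference of 0.33 that spanned -0.57 to 0.85. NCAPG2, a HEAT-repeat subunit (chromosome 7, 158423861 to 158497495, minus strand), rose from 11.114 and 11.077 to 11.993 and 11.89 (difference 0.85, SE 0.06, limma adjusted p = 0.00181). The kleisin NCAPH2 (chromosome 22, 50946653 to 50963209, plus strand) rose from 10.792 and 10.799 to 11.413 and 11.586 (difference 0.70, SE 0.07, limma adjusted p = 0.00399). Both rises were within the range of those in condensin I. NCAPD3, the HEAT-repeat subunit that takes the place of NCAPD2 (chromosome 11, 134020008 to 134095398, minus strand), fell from 11.299 and 11.274 to 10.743 and 10.692 (difference -0.57, SE 0.05, 95% interval -0.71 to -0.43, limma adjusted p = 0.00301). In reads estimated from the values, it fell from 2476 and 2517 to 1670 and 1538. Its libraries agreed closely within each group, and its difference stood at the 19.9th percentile of all genes tested, where those of the other 7 subunits stood at the 89.6th to the 93.6th.

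The promoters of counterpart subunits are shown because the NCAPD2 and NCAPD3 transcripts moved in opposite directions while NCAPG and NCAPG2 moved alike. Each is the 250 bases before a RefSeq start (GRCh38.p14). Capitals mark the motifs searched on both strands: the CCAAT box (also read as ATTGG), the cell cycle genes homology region as TTTGAA or TTCGAA, and the E2F site forms TTTGGCGC, TTTCCCGC and TTTCGCGC. No matches overlapped. NCAPD3 has more than 1 annotated start. The first bases after the start that follows the window shown lie in 13 of its 29 GENCODE transcripts, which need not begin there. For the other windows shown, such bases lie in 3 of 13 transcripts of NCAPD2, 1 of 5 of NCAPG and 2 of 11 of NCAPG2. The NCAPD2 window is chr12:6493852-6494101 (plus strand), the NCAPD3 window chr11:134223968-134224217 (minus strand), the NCAPG window chr4:17810729-17810978 (plus strand) and the NCAPG2 window chr7:158704805-158705054 (minus strand).
NCAPD2: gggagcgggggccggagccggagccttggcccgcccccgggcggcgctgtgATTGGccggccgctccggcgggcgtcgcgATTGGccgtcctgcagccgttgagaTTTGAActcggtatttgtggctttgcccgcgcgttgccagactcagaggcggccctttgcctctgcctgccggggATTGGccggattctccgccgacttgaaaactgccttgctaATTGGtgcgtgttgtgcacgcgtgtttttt
NCAPD3: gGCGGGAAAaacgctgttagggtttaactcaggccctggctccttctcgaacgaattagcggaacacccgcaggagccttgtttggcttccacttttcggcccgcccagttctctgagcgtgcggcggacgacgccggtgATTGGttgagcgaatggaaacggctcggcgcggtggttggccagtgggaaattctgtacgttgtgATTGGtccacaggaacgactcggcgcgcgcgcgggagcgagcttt
NCAPG: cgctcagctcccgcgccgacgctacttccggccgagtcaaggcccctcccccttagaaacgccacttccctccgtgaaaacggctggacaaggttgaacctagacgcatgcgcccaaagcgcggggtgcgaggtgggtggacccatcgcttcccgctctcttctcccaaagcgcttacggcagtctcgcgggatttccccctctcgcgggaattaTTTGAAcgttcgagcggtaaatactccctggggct
NCAPG2: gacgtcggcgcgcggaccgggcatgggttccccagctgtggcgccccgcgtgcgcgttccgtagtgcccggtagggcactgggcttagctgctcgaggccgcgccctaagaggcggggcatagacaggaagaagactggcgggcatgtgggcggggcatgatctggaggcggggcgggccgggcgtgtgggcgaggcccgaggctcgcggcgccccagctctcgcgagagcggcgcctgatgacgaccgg

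The NCAPD2 window held CCAAT 4 times, all as ATTGG, at -199, -170, -70 and -30 from the start, and TTTGAA at -145. The NCAPD3 window also held ATTGG, at -110 and -45, and TTTCCCGC as GCGGGAAA at -249. These 2 windows both held the CCAAT motif, which 32.01% of the 35116 RefSeq promoter windows hold. Another NCAPD3 window, before a start whose first bases lie in 2 of its 29 transcripts, held 0 motifs. TTTGAA, held by 13.32% of windows, also lay in the NCAPG window at -35 and in 1 of the SMC4 windows, as TTCAAA at -75. NCAPH held CCAAT at -112, before a start whose first bases lie in 1 of its 7 transcripts. None of the motifs lay in the windows of NCAPG2 or SMC2. TTTCCCGC was held by 1.39% of all windows, TTCGAA by 1.19%, TTTGGCGC by 0.55% and TTTCGCGC by 0.44%, and the last 3 lay in no subunit's window. Promoters matched 7 of the 8 subunits, the exception being NCAPH2. A match is a run of letters and not a measured binding site.

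Each non-SMC subunit of condensin I has a counterpart in condensin II, and the log2 ratio within a library is free of any scaling factor applied to a whole library. NCAPD2 over NCAPD3 was 1.752 and 1.756 under the control label and 2.971 and 2.955 under the GNA13-deficient label, a difference of 1.21. Its replicates were within 0.02 of each other. NCAPG over NCAPG2 was 0.228 and 0.187 against -0.026 and 0.092, a difference of -0.17. NCAPH over NCAPH2 was 0.085 and -0.01 against 0.286 and 0.095, a difference of 0.15. The groups did not overlap in any of the 3 ratios, but in the last the nearest libraries were 0.01 apart. With quantile normalization the groups overlapped in that ratio (exact permutation p = 0.667). Its difference was 0.06 without the first library labelled GNA13-deficient and 0.25 without the second, so its size rested on them. An exact two-sided permutation test gave p = 0.333 for each ratio on the values as deposited, the smallest that the 6 arrangements of 2 against 2 libraries allow, so the design could not reach 0.05.

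Levels were compared between subunits per length, as RPKM, the recovered reads scaled to kilobases of transcript and to the total of mapped reads (mean ± SD, n = 2). NCAPD2 was the most abundant, at 57.5 ± 2.34 under the control label and 86.6 ± 4.80 under the GNA13-deficient label, followed by SMC4 at 38.6 ± 8.01 and 62.4 ± 3.42. NCAPG, NCAPG2, NCAPH2 and SMC2 followed, at 16.6 to 18.2 under the control label and 27.6 to 30.9 under the GNA13-deficient label. The libraries of these 4 overlapped from each to the next in both orders, which were not the same: under the GNA13-deficient label NCAPG2 (30.9 ± 2.26) and SMC2 (29.2 ± 1.58) came before NCAPG (27.9 ± 0.426) and NCAPH2 (27.6 ± 1.72). The lowest were NCAPD3, at 11.2 ± 0.476 under the control label and 7.28 ± 0.345 under the GNA13-deficient label, and NCAPH, at 9.97 ± 0.734 and 17.4 ± 0.549. NCAPD3 and NCAPH thus changed places at the bottom of the order, although under the control label the lower NCAPD3 value (10.8) was only just above the higher NCAPH value (10.5). That order depended on the length used: per kilobase of coding sequence NCAPD3 was lowest in both groups, at 18.3 ± 0.78 and 11.9 ± 0.566, and NCAPH stood at 27.1 ± 1.99 and 47.3 ± 1.49.

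Expressed as a share, NCAPD3 made up 16.27% and 16.24% of the per-length reads of NCAPD2 and NCAPD3 together under the control label and 7.71% and 7.79% under the GNA13-deficient label. With coding length the group means were 21.71% and 10.71%. NCAPG2 made up 49.17% and 49.88% of its pair against 53.56% and 51.53%, and NCAPH2 63.01% and 64.54% against 59.71% and 62.85%. With coding length the NCAPG2 share was 43.12% and 43.82% against 47.48% and 45.45%, so which of NCAPG and NCAPG2 was the more abundant under the GNA13-deficient label depended on the length used. The difference in share, GNA13-deficient minus control, was thus -8.51 percentage points for NCAPD3, 3.02 for NCAPG2 and -2.49 for NCAPH2. Such shares describe transcripts and not assembled complexes.

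**Figure D2:**
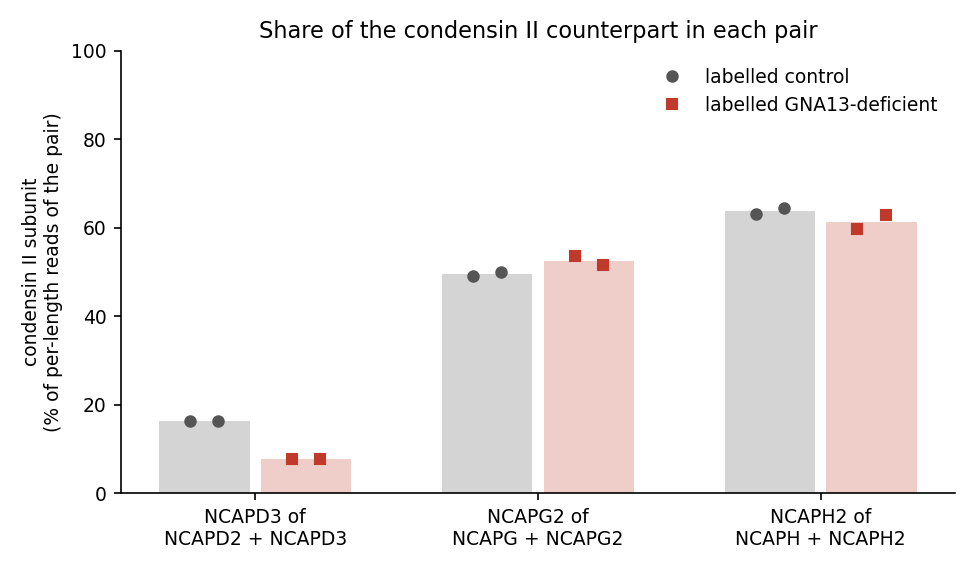
Share of the condensin II subunit in the per-length reads of each pair of counterparts (vertical axis, percent, from 0), with bars for group means and points for the 2 libraries of each group. The NCAPD3 bars stand at 16.26% and 7.75%, while the NCAPG2 and NCAPH2 bars lie between 49.52% and 63.77% in both groups.

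NCAPD3 lies close to the end of the long arm of chromosome 11, and most expressed genes around it were lower as well. This region was examined after the values had been seen. Among protein-coding genes tested whose mean log2 value reached 8.126, the median, 59 lay within 20 Mb of NCAPD3. Of these, 54 were below 0 and 47 (79.7%) were called lower, with 2 called higher and a median difference of -0.73. Over all 8271 such genes, 17.4% were called lower and 21.6% higher, 46.3% were below 0 and the median was 0.03. Elsewhere on chromosome 11, 419 genes had a median of -0.18, and 37.2% were called lower. NCAPD3 therefore fell less than the median of its neighbours: relative to it, the difference of NCAPD3 was 0.16.

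Closer in, within 5 Mb, all 9 such genes were below 0 and 8 were called lower, with a median of -1.11. VPS26B, a retromer subunit whose exons overlap those of NCAPD3 on the opposite strand by 249 bases, had log2 values of 10.187 and 10.497 under the control label and 8.364 and 8.532 under the GNA13-deficient label (difference -1.89, limma adjusted p = 0.00175). THYN1 fell by 1.34 (limma adjusted p = 0.00108), ACAD8, a mitochondrial acyl-CoA dehydrogenase, fell by 1.31 (adjusted p = 0.00157) and SNX19, a sorting nexin, fell by 1.38 (adjusted p = 0.00102). The fall of each was more than double that of NCAPD3 on the log2 scale. ST14, ZBTB44, APLP2 and NFRKB fell by 0.70 to 1.11, and PRDM10 (difference -0.25, adjusted p = 0.16) was not called. DNA copy number was not measured, and why the region moved was not tested.

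The other 7 subunits had no such surroundings at 20 Mb. Their windows held 56 to 123 genes, with medians of -0.01 to 0.08 and 14.9% to 25.4% called lower. Relative to those medians the differences were 0.60 to 0.82. Within 5 Mb of NCAPH2, near the end of chromosome 22, 16 of 23 genes were below 0 and 9 were called lower (median -0.28), while NCAPH2 itself rose by 0.70. Within 5 Mb of NCAPG, 4 of 9 genes were called lower (44.4%, median -0.09). The other 5 windows of that size had 0.0% to 17.4% called lower.

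**Figure D3:**
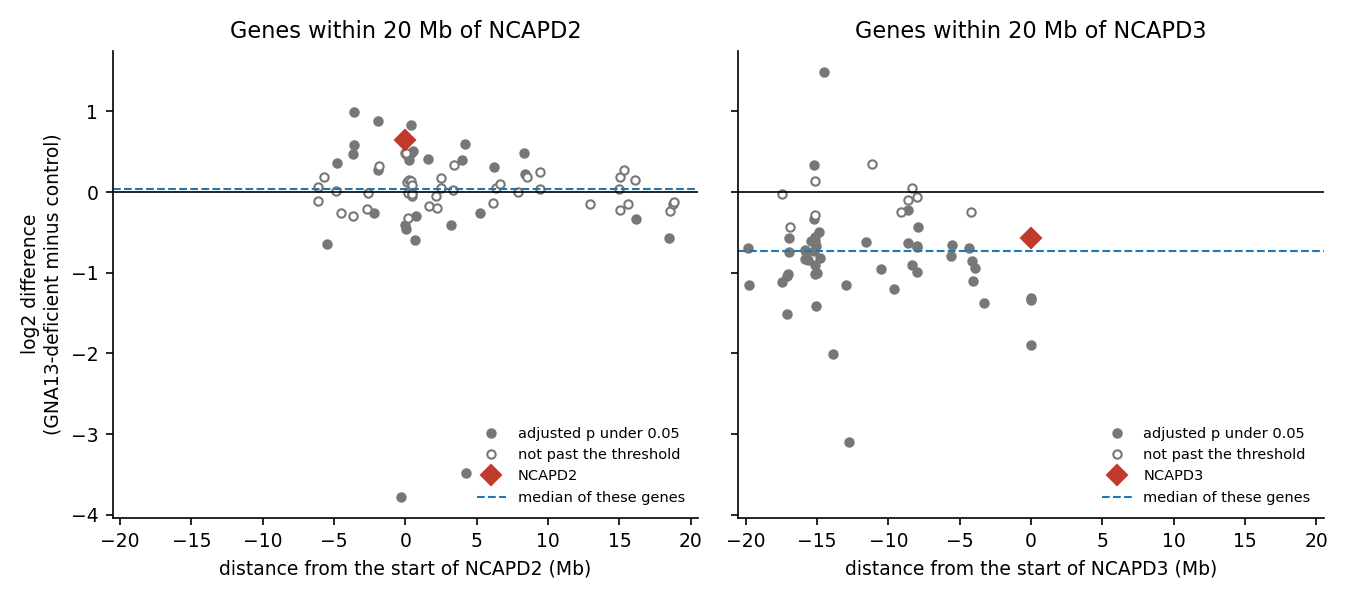
Log2 difference (GNA13-deficient minus control, vertical axis) of protein-coding genes against their distance in Mb from NCAPD2 (left) and NCAPD3 (right), with filled points for genes called by limma, open points for the rest, a diamond for the subunit and a dashed line at the median of the neighbours. NCAPD2 sits above neighbours centred on 0.04, and NCAPD3 lies slightly above neighbours centred on -0.73.

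Several subunits share exon sequence with a gene on the opposite strand. The setting with which reads were counted by strand is not given in the sources used here, so those reads may be split or counted with either gene. The overlap was 33.7% of the exon bases of NCAPG with LCORL (difference 0.25, limma adjusted p = 0.231), 19.2% of NCAPH2 with SCO2 (0.15, adjusted p = 0.381) and 19.0% of SMC4 with TRIM59 (0.06, adjusted p = 0.651). None of these partners was called. MRPL51 overlapped 5.9% of NCAPD2 and rose by 0.48 (adjusted p = 0.0134). JAM3 overlapped 10.1% of NCAPD3 but was barely expressed, with a mean log2 value of 2.17. An annotated lncRNA on the same strand also shares 19.2% of the exon bases of NCAPH2.

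Genes of related chromosome machinery were counted in the same way. Over all genes tested, 13.1% were called higher and 16.6% lower. Over the 8271 protein-coding genes whose mean log2 value reached 8.126, the shares were 21.6% and 17.4%. Of 18 genes of the cohesin pathway, which holds sister chromatids together, 12 were called higher and 1 lower, with a median difference of 0.44. ESPL1, the separase that cleaves cohesin, rose by 1.06 (limma adjusted p = 0.00214), the acetyltransferase ESCO2 by 0.90 (adjusted p = 0.00222) and SGOL2, a shugoshin that protects centromeric cohesin, by 0.84 (adjusted p = 0.03). MAU2, a cohesin loading factor listed as KIAA0892, fell by 0.26 (adjusted p = 0.0372). The core ring subunits SMC1A, SMC3 and RAD21 rose by 0.60, 0.51 and 0.43. The single fall was not called without the filter, with median centring or without the variance trend, and the count of rises was 4 without the filter or without the trend.

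The SMC5/6 complex, another SMC machine that acts in DNA repair, had 3 of 9 members called higher and 0 lower by limma, with a median of 0.33. Of the 8271 protein-coding genes above, 21.6% were called higher and 17.4% lower. At an unadjusted p under 0.05, 4 members were higher and 1 lower, beside 3218 higher and 3910 lower of all 16945 genes, and voom weights on recovered reads called 2 higher and 1 lower. The members that rose were SLF2 (listed as FAM178A, 0.50, adjusted p = 0.012), SLF1 (listed as ANKRD32, 0.37, adjusted p = 0.0284), both of which recruit the complex to DNA damage, and NSMCE2, its SUMO ligase (0.30, adjusted p = 0.0281). Its ATPases SMC5 and SMC6 had differences of 0.33 (adjusted p = 0.14) and 0.59 (adjusted p = 0.0638) and were not called. The count of rises ran from 0 to 6 over the fits of 4 libraries.

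Among 15 partners of condensin on mitotic chromosomes, 10 were called higher and 0 lower by limma, with a median of 0.59. Of all genes tested, 13.1% were called higher and 16.6% lower, and of the 8271 protein-coding genes above, 21.6% and 17.4%. At the same unadjusted p, 11 were higher and 1 lower, and voom weights called 10 higher and 0 lower. TOP2A, the topoisomerase that untangles DNA as condensin folds it, rose from 13.431 and 13.2 to 14.63 and 14.545 (difference 1.27, limma adjusted p = 0.00214). AURKB, the kinase of the chromosomal passenger complex that promotes condensin loading, rose by 1.11 (adjusted p = 0.00128), and CDCA8, another subunit of that complex, by 0.88 (adjusted p = 0.00159). CDK1 (listed as CDC2), its cyclin CCNB1 and the kinase PLK1 rose by 0.72, 0.59 and 0.43. TOP2B (0.28, adjusted p = 0.116), MCPH1, a condensin II inhibitor (-0.06, adjusted p = 0.731), AKAP8 (-0.16, adjusted p = 0.123) and PHF8 (-0.22, adjusted p = 0.0755) were not called.

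**Figure D4:**
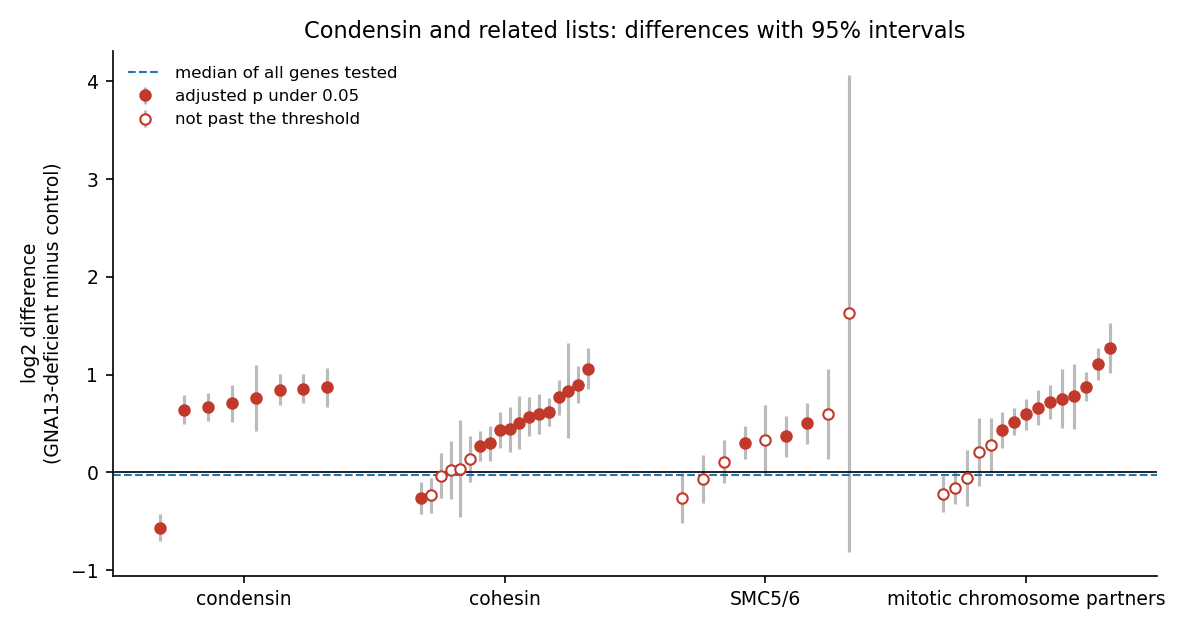
Log2 difference (GNA13-deficient minus control, vertical axis) with its 95% interval for each gene of the condensin, cohesin, SMC5/6 and mitotic chromosome partner lists, in rising order, with filled points for genes with a limma adjusted p under 0.05 and a dashed line at the median of all genes tested. Every condensin subunit is filled, 7 near 0.64 to 0.87 and NCAPD3 at -0.57, and each of the other lists also holds open points, that of EID3 in the SMC5/6 list at 1.63 with the widest interval.

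Among 3121 other genes at least as abundant as the lowest subunit, 5 lay nearest to the mean course of the subunits over the 4 libraries, as the root mean square distance of deviations from each gene's own mean on the log2 scale. They were FAM122B (0.01), ANP32B, a histone chaperone (0.012), TMX4 (0.0135), CBX1, the heterochromatin protein HP1 beta (0.014), and UBE2A, a ubiquitin-conjugating enzyme (0.019). Their differences were 0.59 to 0.62, near the mean of a list that includes the fall of NCAPD3.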

How the data were processed

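RNA was extracted from NUDUL1 cells by the authors, libraries were made with a stranded mRNA kit, and reads were aligned to hg19 with STAR. HTSeq is named in the submitters' processing notes. The annotation, the versions, the strand setting and the method of normalization are not given in the sources used here. The authors deposited log2 normalized reads for 25066 genes, 1 column per library (0 columns were left unmapped), with a row of total mapped reads that was used only for depth. In each library, 100.0% of the nonzero values worth up to 400 reads were whole reads within 0.2, so the reads behind those values could be recovered. Above 400 reads this was not checked. Recovered reads there, such as the 1538 to 13095 of the subunits, are estimates from rounded values.

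Values were used as deposited, without a pseudocount. Genes with a value over 0, the lowest in the table, in 2 or more libraries (16945) were compared by limma 3.58.1 in R 4.3.3 (lmFit, eBayes with trend; 2 residual degrees of freedom), with Benjamini-Hochberg adjustment over all genes tested and a threshold of 0.05. Genes called are those past it. Counts of replicates differed beyond sampling noise (chi-square per gene 11.7 and 11.4). The pipeline was tested on simulated data. Coordinates and exon overlaps are from GENCODE v44 on GRCh37, the assembly of hg19, and promoters from RefSeq on GRCh38.p14. Per-length levels used the transcript length of the gene model. Figures were drawn with matplotlib 3.10.9 in Python 3.11.

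The members and lists were chosen with earlier results of these data known. The genes named are the 8 subunits, GNA13, the 3 largest called rises and falls in each list and the 5 nearest patterns. A gene counted in the lists is not reported here. Cell markers, neighbours on the chromosome, overlapping genes and the other list members named were added after their values were seen, as was the difference relative to genes within 20 Mb. The other alternatives were a pseudocount of 1, no filter on low values, a filter at the median mean value, quantile normalization, median centring, no variance trend, a robust prior, voom weights on the recovered reads, the replicate number as a block, and leaving out each library.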

Additional observations from a re-analysis of the deposited data

How the results depend on the processing

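The condensin counts were 7 higher and 1 lower in every fit of 4 libraries except without the filter (5 higher) and without the variance trend (6 higher). Without the filter 1999 genes were called, and 4 cohesin genes and 1 SMC5/6 gene were higher and 0 cohesin genes lower. Without the variance trend the counts were 2718 in all, 4 cohesin higher, 0 cohesin lower and 0 SMC5/6 higher. With the filter at the median, SMC5/6 had 5 higher and 1 lower, cohesin 2 lower and the mitotic partners 1 lower. Median centring gave 6 SMC5/6 genes higher and 0 cohesin lower, quantile normalization 2 cohesin and 1 partner lower, and voom 1 SMC5/6 gene lower. The median difference of the subunits, 0.73, was 0.653 with quantile normalization, 0.939 with median centring and 0.682 with voom. The cause of these shifts was not tested.

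In the fits without 1 library, which left 1 residual degree of freedom and assume that a lone library varies like the other group, 0 genes were called in all and 0 in each list, for rises and for falls alike. At an unadjusted p under 0.05, 6 to 7 subunits were higher and 1 lower in each, where 2264 to 2390 of all 16945 genes were higher and 2942 to 3244 lower. Their median ranged from 0.67 to 0.7875. Relative to genes within 20 Mb, the difference of NCAPD3 reversed to 0.161.

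Deviations of libraries that share a replicate number correlated at 0.453 over 8473 genes, but no source ties the numbers to a shared culture, and 2 pairs cannot settle it. The replicate block gave 6616 genes in all, 7 subunits higher and 1 lower, 2 cohesin genes lower, 5 SMC5/6 genes higher and 1 lower, and 1 partner lower. The ratios of counterparts kept their direction under each alternative tried; without 1 library, NCAPG over NCAPG2 ranged from -0.2335 to -0.1155 and NCAPH over NCAPH2 from 0.0575 to 0.2485.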

Other observations

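Genes next to the subunits, chosen after their values were seen, did not all move with them. C4orf30, now named DCAF16, starts 221 bases from NCAPG on the opposite strand and fell by 0.87 (limma adjusted p = 0.00495) while NCAPG rose by 0.67. LMF2, 522 bases from NCAPH2 on the opposite strand, rose by 0.60 (adjusted p = 0.00393), near the rise of NCAPH2. ITPRIPL1, the gene before NCAPH, rose by 0.63 (adjusted p = 0.00547). PTPRN2, which follows NCAPG2 in the direction of transcription, fell by 1.42 (adjusted p = 0.009) while NCAPG2 rose by 0.85.

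Within 20 Mb of NCAPD3, ARHGEF12, which encodes a RhoGEF activated by Gα13, fell from 11.018 and 11.195 to 9.148 and 9.045 (difference -2.01, limma adjusted p = 0.000926). In the same window PVRL1, a nectin, rose by 1.49 (adjusted p = 0.000963) and SLC37A4 by 0.34 (adjusted p = 0.0269).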
